A study of Citrus sinensis with 24 samples.

Results

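Gene expression in young fruits of the low acid sweet orange variety Bingtang was compared with that in fruits of the same age from the normal acid varieties Newhall and Xinhui. All genes of the deposited read counts were taken at 45 days post anthesis (DPA), in 3 Bingtang, 3 Newhall and 3 Xinhui libraries. Of the 24166 genes in the table, 20739 had enough reads to be tested. This was judged over all 24 libraries of the series, so some tested genes had few or no reads at 45 DPA. The fruits were of Citrus sinensis and came from trees grown in the field, the labelled tissue is fruit without a named part, and each variety and stage had 3 biological replicates. The acidity classes are those of the labels, in which the variety Succari is acidless. They describe the later fruits, since the study describes the acid levels of the varieties as still similar at the earlier stage compared here. The whole series holds 24 libraries, from all 4 varieties at 45 and 142 DPA. Each acidity class is represented by 1 or 2 varieties, so what goes with the low acid class and what goes with the genotype of Bingtang cannot be told apart.

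Citrus fruits store citric acid, and later sugars, in the vacuoles of their juice sac cells. Acid builds up while the fruit grows, and the balance of sugars and acids at maturity sets the taste of the fruit. At 45 DPA sweet orange fruits are in the phase of cell division, while at 142 DPA they are in that of cell expansion. The comparison at 45 DPA thus asks which transcripts already set Bingtang apart before the fruit expands.

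The 9 libraries held about 3800000 to 5900000 uniquely assigned reads, with the lowest total in Newhall replicate 3. Reads were found for 19744 to 20058 genes in Bingtang, against 19303 to 19927 in Newhall and 19965 to 20053 in Xinhui. Levels are given as CPM, the count scaled to a library total of 1000000 reads. A single read corresponded to 0.170 to 0.266 CPM, so levels below about 1 CPM rest on a handful of reads. No library stood apart from its group. Over the 10701 genes with a mean of at least 10 CPM, the root mean square difference in log2 level had a median of 0.193 between Bingtang replicates, against 0.223 between Newhall and 0.192 between Xinhui replicates. Between varieties the same distance was larger, at 0.393 for Bingtang against Newhall, 0.400 for Bingtang against Xinhui and 0.431 for Newhall against Xinhui. By this measure Bingtang lay no farther from either normal acid variety than these lay from each other. The actin gene Cs1g05000, which served as the reference for quantitative PCR (qPCR) in the study, was at 2283 ± 117 CPM in Bingtang, 2543 ± 76.6 CPM in Newhall and 2132 ± 88.2 CPM in Xinhui (SD, n = 3 each), with a log2 fold change of -0.02 for Bingtang over the normal acid varieties (SE 0.0821).

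Few genes distinguished Bingtang from the normal acid varieties at 45 DPA. In a test of Bingtang against the mean of Newhall and Xinhui, in which both varieties weigh equally on the log2 scale, 125 genes were higher in Bingtang and 115 were lower, together 1.16% of the genes tested (0.603% higher and 0.555% lower). A gene was called when its adjusted p in edgeR's quasi-likelihood test was under 0.05 and its change was at least 2-fold. Most changes were moderate, since 147 of the 240 called genes changed between 2- and 4-fold, 71 between 4- and 16-fold and 22 by more. The median log2 fold change was 1.54 among the genes called higher and -1.83 among those called lower, and 0 over all genes tested. Of the called genes, 22 had no reads in at least 1 of the varieties, and with these set at a floor of 3 counts per variety the medians were 1.48 and -1.75. Called genes covered a wide range of levels but tended to be less abundant, with a median level of 6.11 CPM for the higher and 5.81 CPM for the lower genes over the 9 libraries, against 10.9 CPM for all genes tested. An adjusted p under 0.05 at any fold was reached by 807 genes, which is 3.89% of those tested.

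The counts of called genes changed with the libraries in the fit. A fit on the 9 compared libraries alone, which tested 19210 genes, called 197 higher and 232 lower, including 238 of the 240 genes. Without Bingtang replicate 2, 76 genes were called lower. When 1 Bingtang library was left out, 161, 154 and 163 of the 240 genes were still called in the same direction without replicate 1, 2 and 3.

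**Figure D1:**
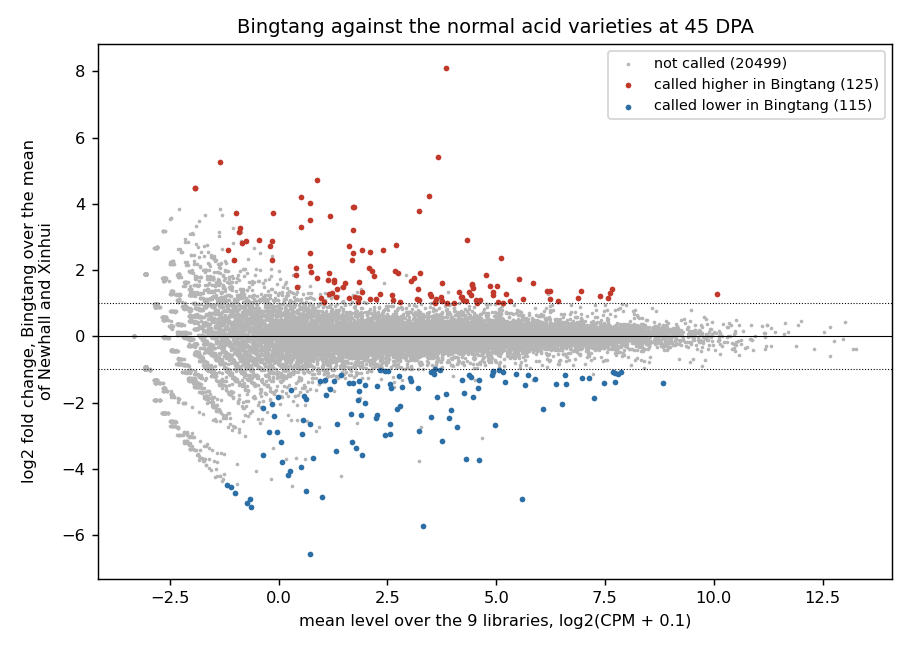
Log2 fold change of Bingtang over the mean of Newhall and Xinhui at 45 DPA for each of the 20739 tested genes (vertical axis) against its mean level over the 9 libraries, as log2(CPM + 0.1) (horizontal axis). Red points are the 125 genes called higher in Bingtang, blue points the 115 called lower, grey points the genes not called, and dotted lines mark 2-fold. Called genes lie at all levels, with the highest red point, Cs4g15250, at 8.09.

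The test against the mean of both normal acid varieties can be passed through a large difference from only one of them. Taken alone, Newhall gave 131 genes higher and 191 lower in Bingtang (0.632% and 0.921% of the genes tested, 1.55% together), although 85 were higher without Newhall replicate 1 and 80 without Newhall replicate 3. Xinhui alone gave 193 genes higher and 247 lower in Bingtang (0.931% and 1.19%, 2.12% together). The normal acid varieties themselves differed in more genes, with 308 higher and 306 lower in Newhall than in Xinhui (1.49% and 1.48%, 2.96% together), and without Newhall replicate 2 the lower count was 201. Thus a variety contrast within one acidity class gave more calls than either contrast with Bingtang, although the counts share libraries and their difference was not tested.

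Among the 240 genes, 87 were also called against each normal acid variety on its own, 35 of them higher and 52 lower in Bingtang. Another 62 were called only against Newhall, 82 only against Xinhui and 9 against neither alone. Being called against one variety only does not show that the other one differed, which was not tested for these groups. These comparisons share the 3 Bingtang libraries and make up the pooled one, so that the numbers only describe it. Newhall and Xinhui also differed from each other in 82 of the 240 genes, of which 55 were higher in Newhall and 27 higher in Xinhui.

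**Figure D2:**
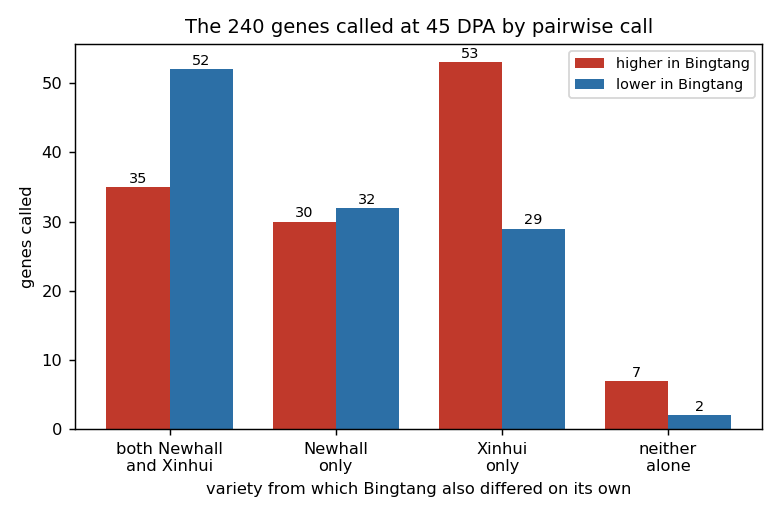
Number of genes called in Bingtang against the normal acid varieties at 45 DPA (vertical axis), by the varieties from which Bingtang also differed in a test of its own (horizontal axis). Red bars are genes higher in Bingtang and blue bars genes lower in Bingtang; 35 higher and 52 lower genes were called against both Newhall and Xinhui.

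Separation of the libraries gave another view of the same genes. In 2562 genes, 12.4% of those tested, all 3 Bingtang libraries lay beyond all 6 normal acid libraries in CPM, with 1394 above and 1168 below them (6.72% and 5.63%). Without Bingtang replicate 1, when fewer libraries have to be apart, 1757 lay below. Of the 240 called genes, 201 were apart in this way, 96 of them above and 105 below. The other 39 overlapped, 29 among the higher and 10 among the lower genes.

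The deposited table gives gene identifiers without names, and the sources used here name few of them, so the genes with the largest differences are given by identifier. They were ranked among called genes with all 3 Bingtang libraries beyond the other 6 and a mean of at least 10 CPM in the higher group. Under this rule the largest increase was in Cs4g15250. Its level was 42.0, 41.9 and 43.7 CPM in the Bingtang libraries, against 0, 0.188 and 0 CPM in Newhall and 0, 0 and 0.782 CPM in Xinhui. It was thus an abundant transcript in Bingtang and close to absent from the other libraries, with 680 reads in Bingtang against 5 in the 6 normal acid libraries. The ratio of the pooled levels was 263, with an exact 95% interval of 112 to 813 that covers counting error only. For this gene the log2 fold change was 8.09 (SE 0.387, edgeR adjusted p = 3.7e-12). Succari, at 0.384 ± 0.209 CPM (SD, n = 3), was also low.

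Cs3g14680 had the next largest increase under the same rule. It was at 36.0, 26.2 and 31.7 CPM in Bingtang, against 4.62, 7.32 and 7.45 CPM in Newhall and 0, 0.170 and 0 CPM in Xinhui. The 3 varieties therefore had 3 separate levels, and the log2 fold change of 5.41 (SE 0.422, edgeR adjusted p = 1.76e-07) averages 2.26 against Newhall and 8.56 against Xinhui. Against Xinhui, with 1 read, the pooled ratio of 504 has an interval of 90.1 to 19954, while against Newhall it was 4.91 (3.93 to 6.201).

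The largest decrease by the same rule was in Cs3g04590. Its level was 0, 0.341 and 0 CPM in Bingtang, against 2.31, 1.88 and 2.66 CPM in Newhall and 29.5, 28.9 and 23.3 CPM in Xinhui. Bingtang held 2 reads in all, and the normal acid varieties differed from each other (log2 fold change of Newhall over Xinhui -3.52, SE 0.342, edgeR adjusted p = 3.96e-07). The log2 fold change of Bingtang over both was -5.73 (SE 0.565, adjusted p = 8.21e-07), and the pooled level in the normal acid varieties was 123 times that in Bingtang, with an interval of 33.9 to 1019. Succari held 1 read, as low as Bingtang.

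Cs8g05670 combined a large decrease with many reads. It was at 2.38, 1.87 and 1.58 CPM in Bingtang, against 109, 122 and 106 CPM in Newhall and 32.2, 30.4 and 30.3 CPM in Xinhui. No Bingtang library came near any other, and the log2 fold change was -4.90 (SE 0.292, edgeR adjusted p = 1.8e-10). In contrast to Cs3g04590, Succari was high, at 92.9 ± 5.46 CPM.

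Several called genes were without reads in a whole variety. Of the 240, 7 had no reads in the 3 Bingtang libraries and 3 had none in the 6 normal acid libraries. A further 6 of the higher genes had no reads in Newhall alone and 6 had none in Xinhui alone. An example of each was chosen after its values were seen. Cs8g10210 had 4.95, 4.94 and 4.73 CPM in Bingtang, against no reads in Newhall and 5.56, 4.41 and 4.49 CPM in Xinhui. With a floor of 3 counts over a group, Bingtang was at least 23.9-fold higher than Newhall, whereas its log2 fold change over Xinhui was 0.05 (SE 0.229). The pooled contrast called this gene through Newhall, which had no reads at 142 DPA either. Likewise, orange1.1t05842 had 6.34, 4.597 and 3.94 CPM in Bingtang, against 5.33, 4.69 and 3.46 CPM in Newhall and no reads in Xinhui, so that Bingtang was at least 26.7-fold higher than Xinhui. For both genes, the Bingtang level overlapped that of one normal acid variety.

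The fruits at 142 DPA gave a separate set of libraries for the same contrast, but not an independent test. The spread of each gene was estimated once over all 24 libraries. A gene with a low spread was therefore easier to call at either stage. At that stage 844 genes were higher and 692 lower in Bingtang than in the normal acid varieties, which is 7.41% of the genes tested (4.07% higher and 3.34% lower). Of the 125 genes higher at 45 DPA, 55 (44%) were called higher again, and of the 115 lower genes, 37 (32.2%) were called lower again. Both shares were above the share of all tested genes called in that direction. A fit without the 45 DPA library of Bingtang replicate 3 had 24 genes lower at both stages, among its own genes called lower at 45 DPA. The opposite direction was called in 18 genes, 10 of the 125 higher and 8 of the 115 lower genes, and 130 were not called at 142 DPA. The opposite shares were also above those of all genes tested, of which 3.34% were called lower and 4.07% higher. The genes called at 45 DPA were thus called more often at 142 DPA in either direction. How much of this came from the shared estimate of the spread was not tested. The log2 fold change had the same sign at both stages in 181 of the 240 genes, against 49.4% of all genes tested. The median log2 fold change at 142 DPA was 0.98 for the genes higher at 45 DPA and -0.87 for those lower.

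**Figure D3:**
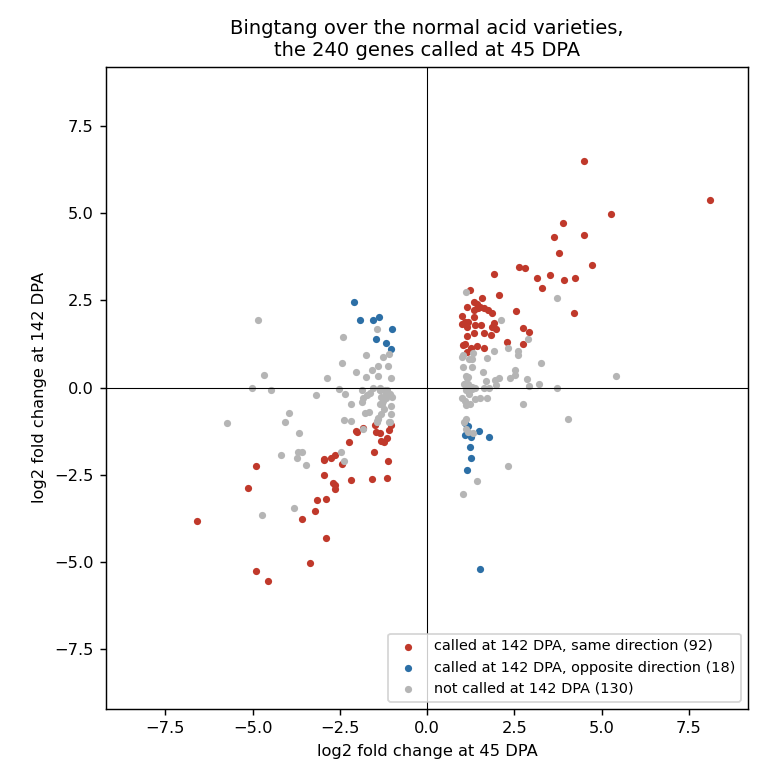
Log2 fold change of Bingtang over the mean of Newhall and Xinhui at 142 DPA (vertical axis) against that at 45 DPA (horizontal axis) for the 240 genes called at 45 DPA. Red points are the 92 genes called in the same direction at 142 DPA, blue points the 18 called in the opposite direction, and grey points the 130 not called at 142 DPA; the empty band in the middle follows from the 2-fold limit at 45 DPA.

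Among the genes called in the same direction at both stages, orange1.1t01394 was at 51.1, 55.2 and 49.7 CPM in Bingtang at 45 DPA, against 15.6, 17.5 and 15.4 CPM in Newhall and 13.0, 15.1 and 10.7 CPM in Xinhui. The gene had a log2 fold change of 1.84 at 45 DPA (SE 0.147, edgeR adjusted p = 2.58e-08) and 2.14 at 142 DPA (SE 0.168). All 4 varieties had a lower mean level at 142 DPA, when Bingtang was at 26.2 ± 1.78 CPM against 7.10 ± 0.373 CPM in Newhall and 5.0003 ± 1.40 CPM in Xinhui. The difference between varieties was therefore kept while the level was lower.

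In orange1.1t03710, Bingtang had 84.8, 83.3 and 84.7 CPM at 45 DPA, against 29.7, 35.5 and 34.3 CPM in Newhall and 18.4, 19.9 and 20.1 CPM in Xinhui. The gene had a log2 fold change of 1.74 at 45 DPA (SE 0.127, edgeR adjusted p = 5.74e-09) and 2.23 at 142 DPA (SE 0.141). The Bingtang libraries were closely grouped and lay above the others at both stages.

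Cs9g17760 was lower in Bingtang at both stages. At 45 DPA it was at 2.18, 1.53 and 2.56 CPM in Bingtang, against 16.5, 15.96 and 15.97 CPM in Newhall and 22.4, 21.9 and 21.1 CPM in Xinhui. The log2 fold change was -3.16 at 45 DPA (SE 0.222, edgeR adjusted p = 3.31e-09) and -3.22 at 142 DPA (SE 0.246). Succari, the acidless variety, was also low, at 3.04 ± 0.229 CPM at 45 DPA and 2.94 ± 0.819 CPM at 142 DPA, so the normal acid varieties had the higher level at either stage.

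Cs8g19450 was also lower in Bingtang at both stages, with a smaller difference. Bingtang had 19.4, 18.7 and 18.1 CPM at 45 DPA, against 48.3, 63.6 and 61.5 CPM in Newhall and 132, 137 and 110 CPM in Xinhui. For this gene the log2 fold change was -2.18 at 45 DPA (SE 0.196, edgeR adjusted p = 1.76e-07) and -2.64 at 142 DPA (SE 0.236). Succari was at 20.0 ± 5.004 CPM at 45 DPA, within the spread of its libraries from the level in Bingtang, but at 24.6 ± 3.66 CPM at 142 DPA, against 5.93 ± 2.15 CPM in Bingtang and 22.3 ± 0.969 CPM in Newhall.

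A test of the difference between the stages called 1100 of the genes tested (5.3%), 555 with a higher and 545 with a lower value at 142 DPA (2.68% and 2.63%), and 70 of the 240 genes. In 67 of these the log2 fold change moved against its direction at 45 DPA. This test uses the same 45 DPA libraries that chose the genes, so that direction is partly set by the choice.

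Some of these genes were called on opposite sides at the 2 stages. Cs6g08260 had 275, 297 and 316 CPM in Bingtang at 45 DPA, against 139, 145 and 123 CPM in Newhall and 144, 132 and 124 CPM in Xinhui. The Succari libraries at 45 DPA, at 314 ± 22.0 CPM, overlapped those of Bingtang. At 142 DPA Cs6g08260 was at 19.5 ± 10.6 CPM in Bingtang, against 49.7 ± 17.9 CPM in Newhall and 208 ± 66.8 CPM in Xinhui. The gene had a log2 fold change of 1.14 at 45 DPA (SE 0.226) and -2.37 at 142 DPA (SE 0.290), with edgeR adjusted p = 0.00435 and 2.77e-06.

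Cs2g03780 was one of the most abundant called genes and had the same pattern. It was at 1477, 1720 and 2051 CPM in Bingtang at 45 DPA, against 756, 735 and 703 CPM in Newhall and 836, 703 and 650 CPM in Xinhui. At 142 DPA Bingtang had 92.6 ± 30.5 CPM, against 206 ± 79.8 CPM in Newhall and 686 ± 280 CPM in Xinhui. Unlike for Cs6g08260, the groups overlapped at that stage, with up to 128 CPM in Bingtang and down to 118 CPM in Newhall. The gene had a log2 fold change of 1.27 at 45 DPA (SE 0.234, edgeR adjusted p = 0.00224) and -2.01 at 142 DPA (SE 0.274). At 45 DPA the Succari libraries, at 2341 ± 151 CPM, lay above those of Bingtang.

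Cs1g19860 and orange1.1t02681 had the reverse pattern. Cs1g19860 was at 3.56, 4.09 and 4.14 CPM in Bingtang at 45 DPA, against 11.2, 11.1 and 13.0 CPM in Newhall and 10.7, 14.3 and 9.38 CPM in Xinhui. At 142 DPA it was at 5.28 ± 1.09 CPM in Bingtang, against 1.49 ± 0.715 CPM in Newhall and 1.30 ± 0.420 CPM in Xinhui. The log2 fold change was -1.55 at 45 DPA (SE 0.244, edgeR adjusted p = 0.000405) and 1.93 at 142 DPA (SE 0.286).

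In orange1.1t02681, Bingtang had 17.6, 17.5 and 15.0 CPM at 45 DPA, against 27.01, 34.2 and 26.3 CPM in Newhall and 65.0, 61.4 and 68.4 CPM in Xinhui. At 142 DPA all levels were low, with 4.59 ± 2.00 CPM in Bingtang, 1.34 ± 0.151 CPM in Newhall and 0.919 ± 0.172 CPM in Xinhui. For this gene the log2 fold change was -1.38 at 45 DPA (SE 0.180, edgeR adjusted p = 3.99e-05) and 2.04 at 142 DPA (SE 0.319).

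**Figure D4:**
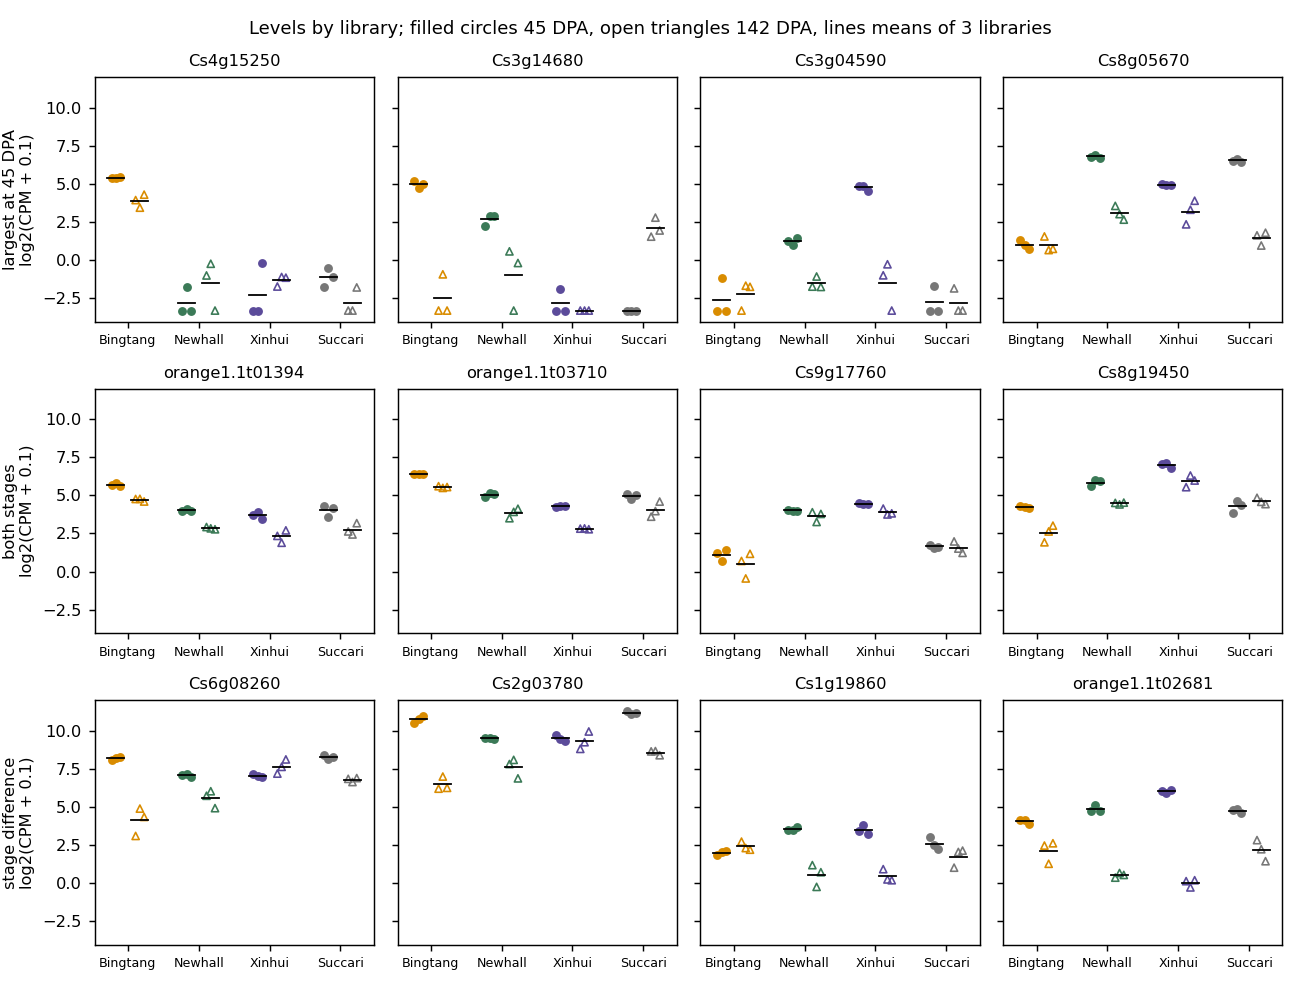
Levels, as log2(CPM + 0.1), of 12 named genes in each library of Bingtang, Newhall, Xinhui and Succari. Filled circles are libraries at 45 DPA, open triangles libraries at 142 DPA, and black lines the means of 3 libraries on the log2 scale; the top row shows the largest differences at 45 DPA, the middle row genes called in the same direction at both stages and the bottom row genes called at 45 DPA and in the difference between stages. In the bottom row, Cs6g08260 and Cs2g03780 are higher in Bingtang at 45 DPA and lower at 142 DPA, while Cs1g19860 and orange1.1t02681 do the reverse.

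Named genes came from a list of 72 genes tied to the fruit sugar/acid ratio, which spans transport, signaling, transcription, metabolism, stress response, development and protein degradation. The list was drawn up on the 24 libraries used here, so it is not independent of these data. All 72 genes passed the filter on low counts, 7 of them had no reads in any of the 9 libraries, and 48 had a mean below 1 CPM in these. At 45 DPA 1 gene of the list was higher and 1 lower in Bingtang, which is 2.78% of the list, against 1.16% of all genes tested. Its log2 fold change was above 0 in 28 genes and below 0 in 37, with a median of -0.04 against 0 for all genes tested. Differences between Bingtang and the normal acid varieties in these genes were thus mostly not detected at this stage. The spread behind the test was estimated over all 24 libraries, and what limited detection was not tested.

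The lower gene was Cs1g10530, whose Arabidopsis homolog HPT1 encodes homogentisate phytyltransferase, an enzyme at the entry to tocopherol (vitamin E) synthesis. It was at 0, 0.511 and 0.394 CPM in Bingtang, against 1.07, 3.00 and 2.13 CPM in Newhall and 1.92, 1.87 and 1.56 CPM in Xinhui. The groups did not overlap, although they rest on 5 reads in Bingtang and 59 in the normal acid varieties. The log2 fold change was -2.52 (SE 0.507, edgeR adjusted p = 0.00494), and the gene was called against Newhall and against Xinhui alone. Succari was at 2.67 ± 0.361 CPM, no lower than the normal acid varieties. At 142 DPA the log2 fold change was -0.02 (SE 0.212), with 10.3 ± 1.16 CPM in Bingtang, 14.5 ± 2.19 CPM in Newhall and 7.69 ± 0.503 CPM in Xinhui. The difference between the stages was 2.50 (SE 0.559, edgeR adjusted p = 0.00356). Cs1g10530 was named because it was called at 45 DPA, which favours a smaller change at 142 DPA.

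The higher gene was orange1.1t01829, described as similar to the tobacco mosaic virus resistance protein N, an intracellular immune receptor of tobacco. Its level was 2.77, 2.21 and 2.17 CPM in Bingtang, against 1.24, 0.375 and 0.266 CPM in Newhall and 0.766, 0.509 and 0.586 CPM in Xinhui. For this gene the log2 fold change was 1.85 (SE 0.448, edgeR adjusted p = 0.0195), from 38 reads in Bingtang and 20 in the normal acid varieties. It was called against Xinhui alone (adjusted p = 0.0352) but not against Newhall alone (log2 fold change 1.76, SE 0.545, adjusted p = 0.0801). The call was lost when any of the Bingtang libraries was left out, with log2 fold changes of 1.75, 1.90 and 1.90 and adjusted p of 0.0994, 0.0654 and 0.0598 without replicate 1, 2 and 3. At 142 DPA the log2 fold change was 1.74 (SE 0.305, adjusted p = 0.000185). A second homolog of the same resistance protein, Cs5g19950, and the leucine rich repeat gene Cs5g18450 were not called.

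The genes measured by qPCR in the study were given whatever their test showed. None of the 6 was called at 45 DPA. Cs1g03610, a homolog of a cytosolic malate dehydrogenase, which interconverts malate and oxaloacetate, was at 0.990, 0.851 and 0.197 CPM in Bingtang, against 1.60, 0.939 and 0.798 CPM in Newhall and 1.53, 0.849 and 0.782 CPM in Xinhui. The libraries of the groups overlapped, and the log2 fold change of -0.65 had an SE of 0.523. Cs5g03630, a remorin-like gene, had a log2 fold change of -1.01 (SE 0.454, edgeR adjusted p = 0.262), with 0.858 ± 0.305 CPM in Bingtang, 1.41 ± 1.23 CPM in Newhall and 2.13 ± 0.690 CPM in Xinhui.

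Cs5g20010, annotated as a hyoscyamine 6-dioxygenase, was at 0.594, 0.681 and 0.591 CPM in Bingtang, against 1.07, 1.502 and 2.13 CPM in Newhall and 1.34, 1.19 and 1.37 CPM in Xinhui. All 3 Bingtang libraries were below the others, but with 10 reads in Bingtang and 43 in the normal acid varieties the log2 fold change of -1.13 (SE 0.526, edgeR adjusted p = 0.282) did not pass the test. At 142 DPA it was 1.73 (SE 0.301, adjusted p = 0.00017).

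Cs5g24670, a putative lipid transfer or seed storage protein gene, had 45.2, 48.4 and 43.0 CPM in Bingtang, against 35.5, 36.8 and 38.3 CPM in Newhall and 35.8, 34.1 and 37.7 CPM in Xinhui. The groups were apart, but the log2 fold change was only 0.33 (SE 0.310, edgeR adjusted p = 0.664), under the 2-fold limit. The fit also holds the libraries at 142 DPA, which ranged from 11.4 to 33.9 CPM in Bingtang, and whether these raised the SE was not tested. Cs6g16160, of unknown function, was at 136, 147 and 106 CPM in Bingtang, against 144, 133 and 138 CPM in Newhall and 136, 140 and 132 CPM in Xinhui. The gene had a log2 fold change of -0.08 (SE 0.206) at 45 DPA and -2.49 (SE 0.243, adjusted p = 1.16e-07) at 142 DPA, so that the varieties came apart in the later fruits. Cs7g32260, a homolog of the small heat shock protein gene HSP18.2, had 6 reads in Bingtang, 6 in Newhall and 6 in Xinhui, and its log2 fold change of -0.04 had an SE of 1.95.

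Of the 24 listed genes with a mean of at least 1 CPM, 20 had a fitted change of less than 2-fold, and 19 had a log2 fold change under 0.5 in size. These are counts of point estimates, with SEs from 0.0785 for Cs6g03950 to 0.526 for Cs5g20010, so a 2-fold change is not excluded for those with a large SE. Among the metabolic genes, Cs3g24700, a homolog of the cytosolic glucose-6-phosphate isomerase PGI of sugar metabolism, was at 49.6 ± 4.21 CPM in Bingtang, 39.8 ± 1.19 CPM in Newhall and 50.9 ± 3.39 CPM in Xinhui, with a log2 fold change of 0.15 (SE 0.136). Cs9g07750, a homolog of APS1, which activates sulfate, was at 594 ± 28.7 CPM in Bingtang, 609 ± 30.4 CPM in Newhall and 674 ± 25.6 CPM in Xinhui, with a log2 fold change of -0.10 (SE 0.109). Cs7g13310, a homolog of the wax synthesis gene KCS6, had a log2 fold change of 0.06 (SE 0.155), and Cs1g25210, which encodes a ribosomal protein, had -0.10 (SE 0.105). Among transcription factors, Cs6g03950, a homolog of the WRKY factor gene TTG2, had a log2 fold change of -0.12 (SE 0.0785). Cs8g18390, of unknown function, had all 3 Bingtang libraries below the others, at 23.6 ± 0.444 CPM in Bingtang, 29.1 ± 4.47 CPM in Newhall and 29.4 ± 2.06 CPM in Xinhui, but its log2 fold change of -0.30 (SE 0.128, edgeR adjusted p = 0.231) did not pass the test.

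**Figure D5:**
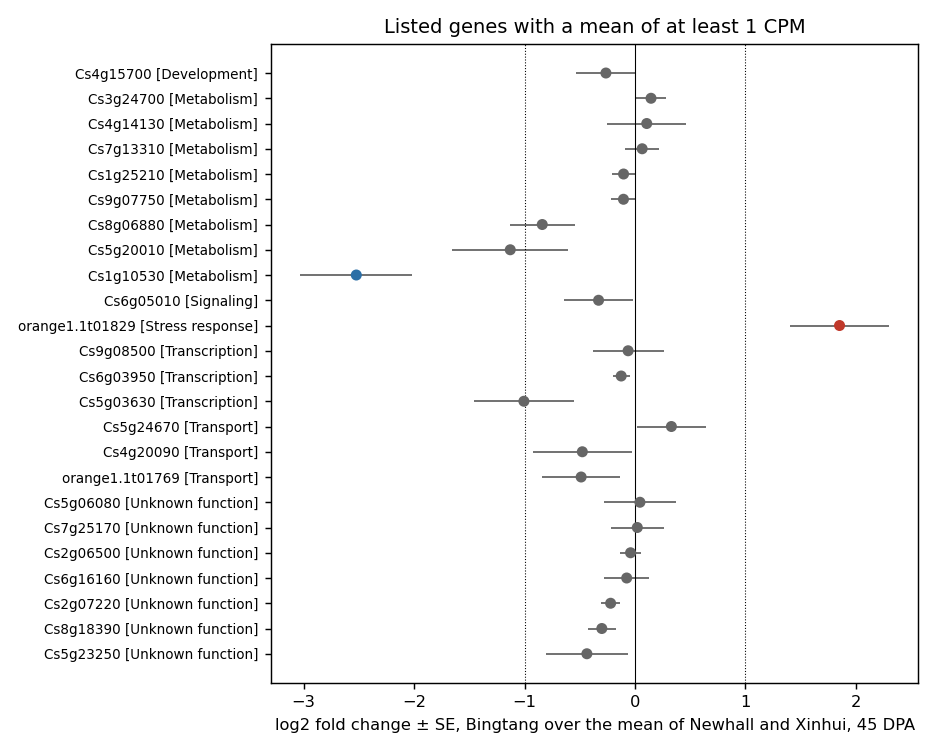
Log2 fold change of Bingtang over the mean of Newhall and Xinhui at 45 DPA (horizontal axis, bars are 1 SE of the edgeR fit) for the 24 listed genes with a mean of at least 1 CPM over the 9 libraries (vertical axis, with their functional class). Red marks the gene called higher (orange1.1t01829), blue the gene called lower (Cs1g10530) and grey the genes not called; dotted lines mark 2-fold, and 20 of the 24 lie between them.

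Markers of seed and of xylem, which a fruit sample may also hold, came from the same list. None of the 8 seed genes was called, with 3 log2 fold changes below 0 and 4 above. Their summed level was 44.7 to 48.7 CPM in the Bingtang libraries, against 37.7 to 39.7 CPM in Newhall and 34.8 to 39.1 CPM in Xinhui. Almost all of it was Cs5g24670, described above, so the sum says little about the other seed genes. In the study Cs5g24670 was negatively correlated with the sugar/acid ratio, and the other seed genes positively. Of these, the oleosin gene Cs2g27550 had 1 read in Bingtang, 6 in Newhall and 1 in Xinhui, and Cs5g31010 had none in the 9 libraries. The xylem genes (homologs of IRX12 and XSP1) together reached at most 0.197 CPM in Bingtang, 0.532 CPM in Newhall and 0.766 CPM in Xinhui. Markers of peel or juice sacs were not used here, so a different share of these tissues between varieties was not tested, and in whole tissue fewer cells of a type and less RNA per cell cannot be told apart.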

How the data were processed

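RNA from fruits of 4 sweet orange varieties at 45 and 142 DPA was sequenced in 24 libraries. The authors deposited 1 table of 24166 genes of raw counts, the whole number of uniquely placed reads per gene and library; a dash was read as 0, and 24 of 24 column sums equal the totals in the headings. The aligner is not given in the sources used here, nor is the genome build.

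Counts were scaled by TMM and fitted with edgeR 4.0.16 in R 4.3.3, in 1 quasi-likelihood fit of 8 groups. The 20739 genes with at least 0.3 CPM in any 3 of the 24 libraries were tested, with Benjamini-Hochberg adjustment over these. SE is the log2 fold change divided by the square root of F. CPM were computed from library totals. Intervals are exact (Clopper-Pearson) at 95%, and they and the floors of 3 counts cover counting error only. The p-values rest on the spread between samples within a variety and stage, estimated over all 8 groups. They hold no spread between varieties of an acidity class. The labels do not say whether replicates came from separate trees, so that spread may not be the one between trees. On simulated counts for this contrast (20739 genes), the test called 86% of genes raised 4-fold, 64% of those lowered 4-fold, and 36% and 38% of those raised and lowered 2-fold. The 2-fold limit of the call itself holds down the last 2 rates, since the median estimates there were 0.993 and -1.01. Apart from the set changes, each simulated gene had the same mean level in all groups, unlike the data.

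The comparison, the gene lists and the rules were chosen with earlier results of these data known. Named were the listed genes called or measured by qPCR, actin, and, with all Bingtang libraries apart and at least 10 CPM in the higher group, 2 identifiers per direction with the largest change at 45 DPA, at both stages and between stages; Cs8g10210, orange1.1t05842 and Cs2g04770 were added after their values were seen. No identifier matched the RefSeq gene table, so names follow the study and no coordinates are given. DESeq2 1.42.0, limma 3.58.1, other scalings, filters, library sets and thresholds were tried. Python 3.11.15, numpy 2.4.6, pandas 2.3.3, scipy 1.17.1 and matplotlib 3.10.9 were used.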

Additional observations from a re-analysis of the deposited data

Results flagged for a closer look

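In 9 of the named genes the log2 fold change of Bingtang over the normal acid varieties differed between 142 and 45 DPA by edgeR's test of that difference. The difference, 142 minus 45 DPA, was 2.50 for Cs1g10530, 2.86 for Cs5g20010 and -2.42 for Cs6g16160. It was -2.72 for Cs4g15250, with a log2 fold change of 8.09 at 45 DPA and 5.38 at 142 DPA, and 2.66 for Cs8g05670, with -4.90 and -2.24 at these stages, so that both kept their direction. It was -3.51 for Cs6g08260 and -3.28 for Cs2g03780, which were higher in Bingtang at 45 DPA, and 3.47 for Cs1g19860 and 3.41 for orange1.1t02681, which were lower at 45 DPA. Of these genes, 4 were named because this difference was large. Cs4g15250 and Cs8g05670 were named for a large change at 45 DPA, which favours a smaller one at 142 DPA. Cs1g10530, Cs5g20010 and Cs6g16160 came from the list drawn up on these libraries. Cs1g10530 was also named because it was called at 45 DPA, which likewise favours a smaller change at 142 DPA. Thus none of the 9 was chosen independently of these data.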

How the results depend on the processing

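No call was reversed. Of 504 values of 24 named genes under 21 alternatives, 501 kept their side of the threshold, and the other 3 were orange1.1t01829 without each Bingtang library (1.75, 1.90 and 1.90). Among the 21, scaling the CPM by TMM reuses the fit of all 24 libraries, so its values could not change. Changed thresholds are not among the 21, and orange1.1t01829 (edgeR adjusted p = 0.0195) is not called at an adjusted p under 0.01. The sign changed between alternatives in 3 genes that were not called, Cs6g16160 (-0.18 to 0.04), Cs7g32260 (-0.47 to 0.39) and Cs1g05000 (-0.07 to 0.02). Fits without the 142 DPA libraries called more genes, and the cause was not tested. Calls against Newhall are given as a percent of the genes tested, against 0.632% higher and 0.921% lower in the fit of all 24 libraries. With only the 12 libraries of 45 DPA, calls were 203 higher and 232 lower in Bingtang, 1.43% and 1.56% of the 19610 genes tested higher and lower against Newhall, 453 lower against Xinhui, 570 lower in Newhall than Xinhui, and 59 and 82 against both normal acid varieties. With the 9 compared libraries these were 197 and 232, 1.45% and 1.55% of 19210 genes tested, 449, 571, and 59 and 81. Calls by limma on log2(CPM + 0.1) were 197 lower, with 59 lower at both stages, and 206 of the 240 genes were shared. DESeq2 called 224 genes and shared 199. With no limit on the fold, calls were 431 higher and 376 lower, 1.44% and 2.1% of the 20739 genes tested against Newhall, 589 and 568 against Xinhui, 801 and 548 for Newhall against Xinhui, 2446 and 2532 at 142 DPA, 1383 and 1591 between stages, 100 and 104 against both varieties, and 128 and 117 at both stages. At an adjusted p under 0.01, calls were 83 higher, 0.352% of the genes tested higher against Newhall, 144 lower against Xinhui, 178 lower for Newhall against Xinhui, 349 higher between stages, 33 lower against both varieties, and 0 higher of the listed genes.

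The libraries left out in turn were the 9 compared and replicate 3 of Succari at 142 DPA. Without a Bingtang library, 154 to 163 of the 240 genes were kept. Over all these fits 88 to 146 genes were higher and 76 to 135 lower, with 0.386% to 0.834% of the genes tested higher against Newhall. There were 201 to 387 lower for Newhall against Xinhui, 24 to 40 lower at both stages and 0 to 1 listed genes higher. Without overlap, 1168 to 1757 genes lay below. Fits without 1 of the 9 called 164 to 226 genes. The fit without the Succari library called more than the 240, including all of these, so the upper ends of 146 and 135 belong to it. No pairing of samples by replicate number was seen, since 0 of 9 same-numbered pairs correlated above 0.1. The same number was the best match in 2 of these 9 comparisons. With so few libraries the check cannot exclude a pairing, and it used the replicate numbers, not those in the sample titles. A replicate block called 235 genes, 232 of them among the 240. Scaling the CPM by TMM as well, an alternative chosen after seeing the data, left the counts without overlap within 1.5 times. Many of the listed genes had few reads, since 48 had a mean under 1 CPM at 45 DPA, where 1 read is 0.170 to 0.266 CPM.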

Other observations

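In Cs2g04770, chosen after its values were seen, the level at 45 DPA was 1.98, 2.04 and 2.56 CPM in Bingtang, against 61.3, 34.4 and 36.7 CPM in Newhall and 5.37, 5.601 and 3.91 CPM in Xinhui, with 0.922 ± 0.958 CPM in Succari (SD, n = 3). At 142 DPA it was 145 ± 66.6 CPM in Bingtang, against 759 ± 131 CPM in Newhall and 448 ± 43.9 CPM in Xinhui, while Succari was at 0.301 ± 0.0992 CPM. The mean levels followed the order normal acid, low acid and acidless at both stages, but at 45 DPA the Succari libraries overlapped those of Bingtang, and that step was not tested. The log2 fold change of Bingtang over the normal acid varieties was -2.75 at 45 DPA (SE 0.392) and -2.00 at 142 DPA (SE 0.222), with edgeR adjusted p = 0.00012 and 7.41e-07. At 45 DPA Bingtang against Xinhui alone was not called (log2 fold change -1.14, SE 0.485, adjusted p = 0.204).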
